A study of Mus musculus with 36 samples.

Results

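Heart and skeletal muscle are both striated muscle, and they were compared here gene by gene in 6 RNA-seq libraries from mice that had received control antibody. The genes described are the 11782 that had at least 1 FPKM in at least 3 of these 6 libraries. The table held 18760 uniquely named genes. FPKM here is a level per gene length, with reads scaled by gene length and by library depth adjusted with a factor per library. The 3 heart and the 3 skeletal muscle libraries are 6 of 36 in a study of immune checkpoint blockade. All animals of that study were wild-type C57BL/6 mice carrying MC38 tumors, a mouse colon carcinoma line, so both groups compared here come from tumor-bearing animals, and both had been given IgG control. The other treatment group had high-dose antibodies against PD1 and CTLA4, and its 3 heart and 3 muscle libraries serve below as a second look at the same tissue difference. Tissue was flash frozen whole, and the labels name neither the chamber of the heart nor the muscle that was taken. Whether each library came from its own animal is not stated, so the p-values refer to the variation among these libraries, part of which may be technical.

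Striated muscle shortens when calcium, released from the sarcoplasmic reticulum, lets myosin heads pull on actin filaments. Heart and skeletal muscle build this machine from related proteins that are encoded by different genes, and each cell type expresses its own set. Cardiomyocytes beat without rest, live mainly on fatty acids burned in mitochondria, and pass the electrical impulse to each other through gap junctions. Skeletal muscle fibers are long fused cells, each started by a motor nerve, and the fast fibers that dominate mouse limb muscle can work on glycogen and glucose. Whole tissue also holds vessels, connective tissue, fat and nerve, and in such bulk RNA fewer cells of a type and less RNA per cell cannot be told apart.

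The markers matched the tissue labels. The summed level of 6 heart muscle markers was 15249, 14475 and 16125 FPKM in the heart libraries, against 40.4, 211 and 115 FPKM in muscle. The summed level of 6 skeletal muscle markers was 197, 109 and 103 FPKM in heart, against 60026, 78598 and 75402 FPKM in muscle. In heart the ventricular marker Myl2 stood at 2829 to 3142 FPKM, whereas the atrial markers Myl7, Sln and Bmp10 did not exceed 0.930 FPKM. Nppa, listed as a marker of both heart muscle and atrium, went the other way, with 109.6, 93.6 and 51.7 FPKM in heart. The 6 libraries held 20542646 to 23960764 reads. Muscle library 2 stood apart from its group: 523 genes were at least 2-fold above or below both other muscle libraries, against 177 and 176 genes for the other 2 muscle libraries and 25 at most for a heart library. Heart library 1 held more hemoglobin and other erythroid marker RNA, with a sum of 3669 FPKM against 767 and 706 FPKM in the other 2 heart libraries. Traces of other organs were seen, with the lung markers Sftpc and Scgb1a1 summing to 31.2 FPKM in heart library 2 and the liver markers Alb and Apoa1 to 31.9 FPKM there and 24.5 FPKM in muscle library 3.

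The question was which genes set the 2 striated muscles apart. At an adjusted p under 0.05 (limma on log2(FPKM + 1), Benjamini-Hochberg over the 11782 genes), 5296 genes differed, or 44.9% of those tested: 2648 were higher in heart (22.5%) and 2648 lower in heart (22.5%). A difference of at least 4-fold on this scale was found for 683 genes (5.8%), 322 of them higher in heart (2.73%) and 361 lower in heart (3.06%). The 322 genes held 10.6% ± 0.469 of the summed FPKM in heart and 0.879% ± 0.0621 in muscle (SD, n = 3 each). The 361 genes held 0.890% ± 0.0366 in heart and 29.1% ± 1.59 in muscle. The deposited FPKM scale, with its factor per library, makes the median difference of all tested genes -0.01, and much of the heart's RNA is mitochondrial. With the reads recovered from the values as library scale, the median was 0.09 and 57.9% of the calls were higher in heart. When mitochondrially encoded genes were left out and the rest rescaled to a common total, that median became 0.36 and 75.1% of the calls were higher in heart, against 2648 of 5296 on the scale used. All differences below are heart minus muscle on the log2(FPKM + 1) scale with their standard error and n = 3 per group, and where a gene is near 0 in a tissue their size depends on the added 1.

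**Figure D1:**
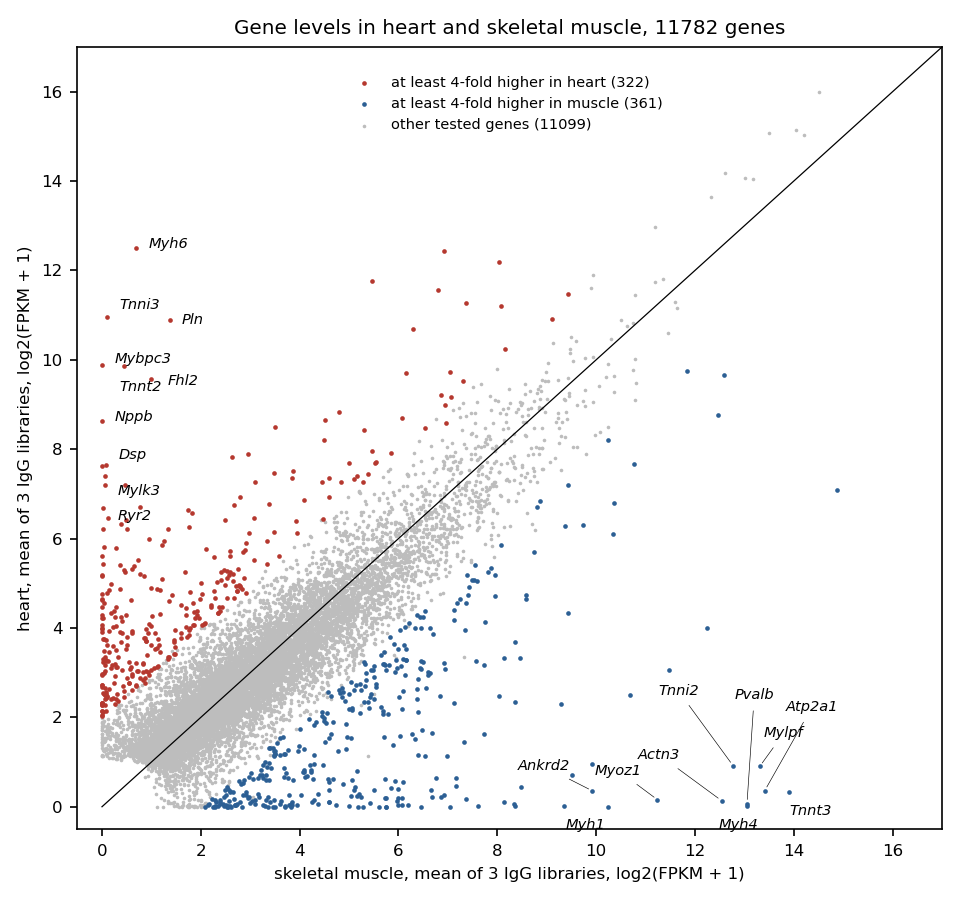
Log2 of (mean FPKM + 1) of 3 heart libraries (vertical axis) against that of 3 skeletal muscle libraries (horizontal axis), 1 point per tested gene, with the line of equal level. Red points are the 322 genes at least 4-fold higher in heart and blue points the 361 at least 4-fold lower in heart, both with an adjusted p under 0.05. Names mark the 10 largest differences each way, predicted and microRNA genes passed over, and these genes lie along the axes, near 0 in the other tissue.

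The filter passes a gene through either tissue, so a gene absent from 1 of them entered only because it was present in the other. Of the tested genes, 27 were listed at 0 in all 3 heart libraries and 42 in all 3 muscle libraries. At the edge of the filter, Slc15a5 was inside with 0, 0 and 0 FPKM in heart and 1.21, 1.82 and 1.00 FPKM in muscle, and Stx1a was outside with 1.04, 1.000 and 0.906 FPKM in heart and 1.27, 0.546 and 0.356 FPKM in muscle. Counts of list members below are therefore descriptions, each to be read against the shares over all tested genes.

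Myh6 encodes the fast alpha myosin heavy chain of the adult mouse ventricle. Its level was 5611, 5340.1 and 6346 FPKM in heart, against 0.607, 0.737 and 0.505 FPKM in muscle, a difference of 11.8 ± 0.13 (limma adjusted p = 1.50e-08) and the largest in favor of heart. Myh4, the myosin of the fastest (2B) skeletal fibers, had 0, 0.0328 and 0.00912 FPKM in heart, against 8233, 11084 and 6324 FPKM in muscle (-13.0 ± 0.21). Of the summed level of 7 muscle myosin heavy chain genes, Myh6 took 99.1%, 99.4% and 99.2% in heart, and Myh4 took 79.6%, 86.1% and 88.7% in muscle. In muscle the 2X myosin Myh1 made up 14.3%, 11.8% and 8.43% of the total and the 2A myosin Myh2 5.52%, 1.87% and 2.41%. The slow myosin Myh7 stood at 0.859%, 0.596% and 0.825% of the heart total and 0.497%, 0.191% and 0.388% of the muscle total. Myh7, the beta myosin shared by slow skeletal fibers and the fetal ventricle, had 48.6, 32.0 and 52.8 FPKM in heart and 51.4, 24.6 and 27.7 FPKM in muscle, and these ranges overlapped (0.40 ± 0.31, limma adjusted p = 0.328).

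Inside the coordinates of Myh7 (chr14:54970684-54994626, mm10, minus strand, GENCODE M21) lies the microRNA gene Mir208b (chr14:54975700-54975776, same strand). It was listed at 189, 145 and 258 FPKM in heart and at 0 in all 3 muscle libraries (7.59 ± 0.21). Its host gene Myh7 was not called under IgG (95% interval -0.33 to 1.13) and was higher in heart under ICB (1.62, limma adjusted p = 0.0435). Reads of a Myh7 precursor over this short interval and reads of the hairpin cannot be told apart, and libraries of this kind do not measure the mature microRNA. The 2 mature products in RefSeq (GRCm38.p6) are shown because the gene had the largest difference of the 3 tested microRNA genes, with the seed, bases 2 to 8, in capitals:
mmu-miR-208b-3p: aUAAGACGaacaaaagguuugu
mmu-miR-208b-5p: aAGCUUUUugcucgcguuaugu
The 3p and 5p products have different seeds.

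The myosin light chains and the thin filament showed the same exchange of genes. The regulatory light chains Myl2 (heart form) and Mylpf (fast skeletal form) differed by 4.91 ± 0.39 and -12.37 ± 0.24. Tnni3, cardiac troponin I, had 1915, 2009 and 2057 FPKM in heart, against 0, 0.0613 and 0.144 FPKM in muscle (10.87 ± 0.12). Tnnt3, fast skeletal troponin T, had 0.107, 0.249 and 0.416 FPKM in heart, against 12779, 17383 and 16041 FPKM in muscle (-13.58 ± 0.17), the largest difference of all tested genes on this scale. Mybpc3, cardiac myosin-binding protein C, was at 934, 827 and 1086 FPKM in heart and listed at 0 in all 3 muscle libraries. Its fast skeletal counterpart Mybpc2 stood at 6.01, 3.58 and 4.42 FPKM in heart, against 1739, 1685 and 1488 FPKM in muscle. In none of these genes did the libraries of the tissues overlap.

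Actin was less strictly divided. Actc1, cardiac alpha actin, had 5789, 5272 and 5610.3 FPKM in heart, against 38.1, 210.1 and 114 FPKM in muscle (5.82 ± 0.55). Acta1, skeletal alpha actin and the top gene of all 3 muscle libraries, had 195, 107 and 100.2 FPKM in heart, against 26739.5, 31856 and 32060.2 FPKM in muscle (-7.87 ± 0.27). Both actins were thus listed in both tissues. The 2 genes encode near-identical proteins, and whether any reads were assigned to the wrong gene was not tested. The tropomyosin gene Tpm1 was abundant in both tissues, with 1014, 1056 and 1049.9 FPKM in heart and 1432, 1841 and 2031 FPKM in muscle (-0.75 ± 0.17), whereas Tpm2 had 6.95, 7.82 and 7.06 FPKM in heart, against 3045, 2736 and 2727 FPKM in muscle (-8.42 ± 0.12).

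The promoters of the 2 myosin and the 2 actin genes are shown as the sequence context of the 2 pairs that exchange places, 250 bases up to the start that RefSeq lists first (GRCm38.p6, the assembly behind mm10), 5′ to 3′ on the strand of the gene. Capitals mark every match, on either strand, to TATAAA, the E-box CAGCTG, the MCAT element CATTCC, the GATA site AGATAA, the CArG box and the MEF2 site.
Myh6, chr14:54966608-54966857, minus strand: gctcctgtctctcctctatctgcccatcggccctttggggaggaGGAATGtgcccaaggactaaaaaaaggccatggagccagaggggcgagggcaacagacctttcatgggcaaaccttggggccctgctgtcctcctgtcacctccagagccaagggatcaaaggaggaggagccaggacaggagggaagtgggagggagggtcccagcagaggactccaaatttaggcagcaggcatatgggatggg
Myh4, chr11:67237562-67237811, plus strand: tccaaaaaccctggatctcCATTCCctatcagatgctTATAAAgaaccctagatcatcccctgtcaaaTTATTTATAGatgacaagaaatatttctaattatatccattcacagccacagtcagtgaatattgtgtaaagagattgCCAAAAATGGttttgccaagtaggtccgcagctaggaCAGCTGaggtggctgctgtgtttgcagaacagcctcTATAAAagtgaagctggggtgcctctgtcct
Actc1, chr2:114052876-114053125, minus strand: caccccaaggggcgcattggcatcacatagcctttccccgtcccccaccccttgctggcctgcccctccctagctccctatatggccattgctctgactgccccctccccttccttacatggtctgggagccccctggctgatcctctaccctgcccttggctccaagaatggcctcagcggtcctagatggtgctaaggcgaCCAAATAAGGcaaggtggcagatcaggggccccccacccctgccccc
Acta1, chr8:123894776-123895025, minus strand: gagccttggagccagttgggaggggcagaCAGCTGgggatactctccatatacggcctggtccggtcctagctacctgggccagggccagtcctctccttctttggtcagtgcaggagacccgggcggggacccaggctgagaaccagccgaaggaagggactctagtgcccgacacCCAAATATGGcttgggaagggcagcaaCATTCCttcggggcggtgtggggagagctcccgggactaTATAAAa
Both skeletal promoters held a CArG box, the E-box, the MCAT element and TATAAA, and Myh4 also a MEF2 site, which overlaps 1 of its 3 TATAAA matches. Actc1 held a CArG box alone, Myh6 held the MCAT element alone, on the opposite strand, and the GATA site occurred in none of the 4. Of 27025 mouse promoters of the same length, 13% held TATAAA, 12.8% the E-box, 12.6% the MCAT element, 10.3% the GATA site, 1.4% a CArG box and 3.01% a MEF2 site. A match is a description of letters, and a start listed elsewhere in the gene would give another window. By GENCODE M21 the Myh6 and Actc1 windows lie inside the annotated genes (chr14:54941921-54966927 and chr2:114047282-114053548). The Myh4 and Acta1 windows lie upstream of theirs. The cardiac and skeletal windows are therefore unlike, and their motifs cannot be compared as promoter against promoter.

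Over the lists, 17 genes for cardiac forms of sarcomere proteins were listed, 14 passed the filter, 10 were higher in heart, 1 was lower (Tpm1) and 3 were not called (Myh7, Lmod2 and Tmod1), with a median difference of 4.21. Of 26 genes for skeletal forms 23 passed the filter, and 22 of these were lower in heart, none higher, with a median of -8.15. The exception was Lmod3, an actin filament nucleator, with 36.4, 39.6 and 41.0 FPKM in heart and 61.6, 21.0 and 55.5 FPKM in muscle. Muscle library 2 was the low one, and without it Lmod3 was lower in heart (-0.57 ± 0.12, limma adjusted p = 0.00830), as were all 23 tested skeletal forms. The cardiac list held 4.30% ± 0.283 of the summed FPKM in heart and 0.488% ± 0.00567 in muscle, and the skeletal list held 0.0495% ± 0.00856 in heart and 17% ± 0.651 in muscle (SD, n = 3 each). An exact permutation test on such shares, 3 libraries against 3, can give no two-sided p below 0.1, which both reached.

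For 35 kinds of protein a gene listed as the heart form and 1 listed as the skeletal form could be paired within each library. Some pairs join different proteins, as phospholamban (Pln) with myoregulin (Mrln) and the mitochondrial creatine kinase Ckmt2 with Ckm, so the counts are not of isoforms alone. The ratio is of (FPKM + 1), so its size depends on the added 1 where a form is near 0. In 34 pairs the log2 ratio of heart form to skeletal form was higher in each heart library than in any muscle library. For each of these the exact permutation p was 0.1, the smallest possible. Among all single genes 29.4% separated in this direction and 59% in either. A ratio combines 2 genes, and the pairs were chosen with earlier results of these data known, so the shares are not alike in kind. In 27 pairs the heart form was the more abundant in heart and the skeletal form in muscle. Ckmt2 to Ckm is among these pairs, although Ckmt2 itself was not called (0.49 ± 0.24, limma adjusted p = 0.141). The widest was Myh6 to Myh4, with log2 ratios of 12.45, 12.34 and 12.62 in heart and -12.32, -12.64 and -12.04 in muscle. In 6 pairs the form listed as skeletal led in both tissues. Enolase (Eno1 to Eno3) had a mean of -4.51 ± 0.12 in heart and -6.63 in muscle. Hexokinase (Hk1 to Hk2) had -0.74 ± 0.29 in heart and -3.62 in muscle. In such pairs the label does not mark a gene of 1 tissue. Hk2 averaged 79.8 FPKM in heart and 60.1 FPKM in muscle and was not called, and Eno1 averaged 36.7 FPKM in both. In Lmod2 to Lmod3 and Jph2 to Jph1 the heart form led in both on average. The leiomodins were the pair that overlapped, with 3.01, 2.58 and 2.92 in heart and 2.06, 3.84 and 0.26 in muscle. Tnnc2 and Pygm, the skeletal forms of 2 further pairs, were not analysed here.

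**Figure D2:**
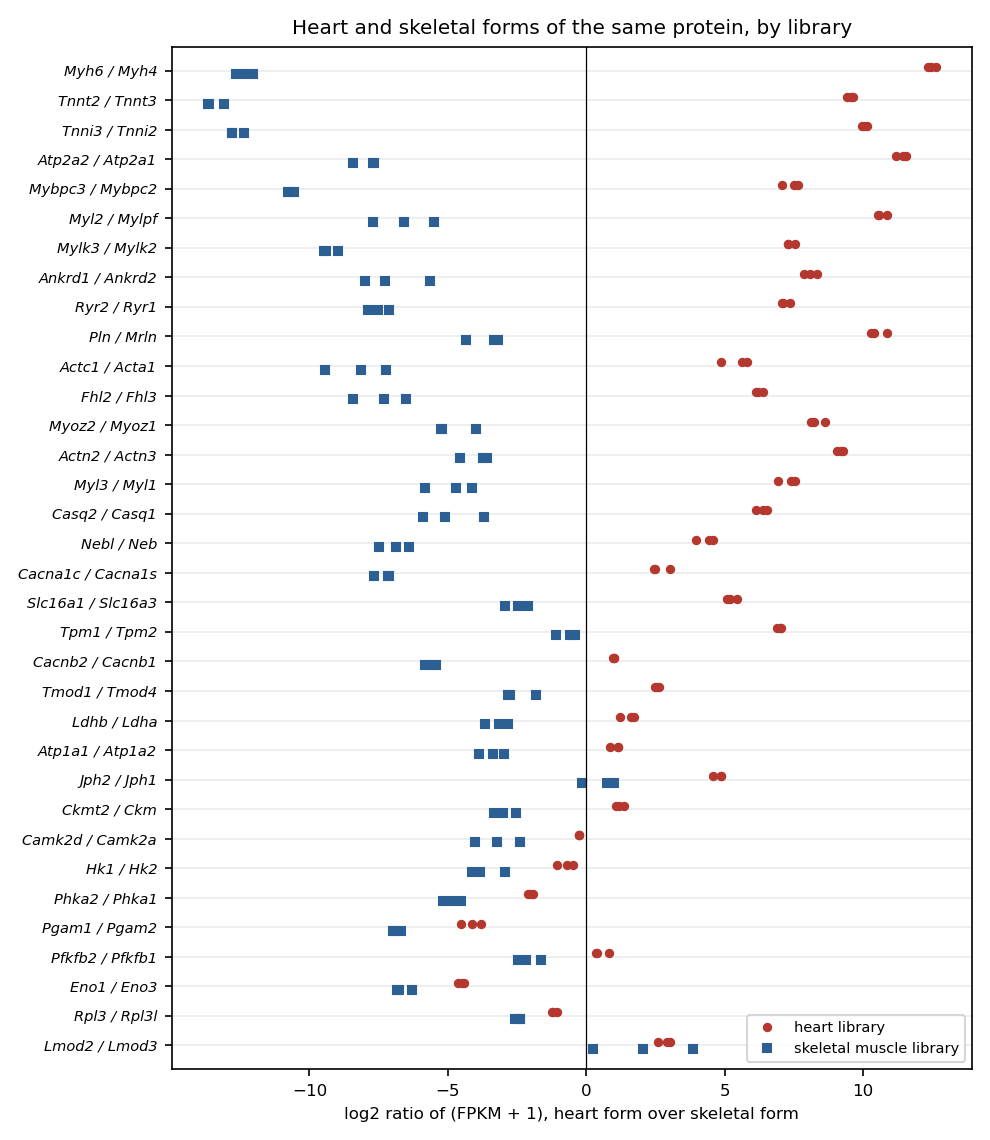
Log2 ratio of (FPKM + 1) of the heart form over the skeletal form for 34 of the 35 protein pairs, 1 point per library, with heart and skeletal muscle libraries in separate colors and a line at equal level. In each pair drawn except Lmod2 to Lmod3 all heart points lie right of all muscle points, and in most the tissues lie on opposite sides of the line.

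The giant and anchoring proteins, which hold filaments in register, were more mixed in direction. At least 4-fold apart were 5 genes higher and 8 lower in heart. Of 32 genes 7 were higher in heart, 16 lower and 9 not called (median -0.41), or 11 higher and 12 lower (median -0.01) without mitochondrial genes. Ttn, the titin spring, was not called, with 38.1, 36.6 and 46.1 FPKM in heart and 42.2, 18.3 and 21.4 FPKM in muscle. Neb, nebulin, which spans the skeletal thin filament, had 0.746, 0.442 and 0.529 FPKM in heart, against 199, 133 and 96.3 FPKM in muscle (-6.46 ± 0.26). Its short relative nebulette, Nebl, ran the other way at 26.4, 30.3 and 35.5 FPKM in heart, against 0.126, 0.133 and 0.152 FPKM in muscle (4.79 ± 0.14). The LIM protein gene Fhl2 had 729, 804 and 746 FPKM in heart, against 1.84, 0.633 and 0.532 FPKM in muscle (8.63 ± 0.24). The ankyrin repeat genes divided likewise, Ankrd1 at 5.55 ± 0.72 and Ankrd2 at -9.51 ± 0.28. Actn3, the alpha actinin of fast fibers, had 0.0781, 0.0682 and 0.152 FPKM in heart, against 6764, 5551 and 5533 FPKM in muscle (-12.4 ± 0.13), while Actn2 overlapped at 635, 559.8 and 708 FPKM in heart and 568, 417 and 232 FPKM in muscle.

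Calcium handling followed the same exchange from channel to pump. Ryr2, the cardiac calcium release channel, had 135, 138 and 167 FPKM in heart, against 0.0494, 0.0338 and 0.0529 FPKM in muscle (7.14 ± 0.13). Ryr1, the skeletal release channel, had 0.0103, 0.00904 and 0.0126 FPKM in heart, against 246, 192 and 147 FPKM in muscle (-7.57 ± 0.19). Neither tissue held more than a trace of the other's channel. The pump that returns calcium to the store was Atp2a2 in heart (3264, 3374 and 3761 FPKM, against 53.7, 39.1 and 36 FPKM in muscle) and Atp2a1 in muscle (0.390, 0.213 and 0.253 FPKM in heart, against 11331, 13784 and 7616 FPKM in muscle). Its brake differed too: Pln, phospholamban, was at 1809.9, 1831 and 2033 FPKM in heart, against 1.78, 1.10 and 1.84 FPKM in muscle (9.53 ± 0.16), and Mrln, myoregulin, was at 0.335, 0.460 and 0.0930 FPKM in heart, against 24.1, 19.9 and 56.5 FPKM in muscle (-4.60 ± 0.37). The calcium buffer parvalbumin, Pvalb, which speeds relaxation of fast fibers, had 0, 0.0948 and 0.0527 FPKM in heart, against 4439, 9439.6 and 11618 FPKM in muscle (-12.87 ± 0.34).

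Cacna1s, the voltage sensor of skeletal fibers, stood at 1.32, 2.29 and 2.66 FPKM in heart, against 278, 182 and 175 FPKM in muscle (-6.10 ± 0.24). Its partners Cacng1 (-8.00 ± 0.17), Stac3 (-5.52 ± 0.15) and Jsrp1 (-8.02 ± 0.18) were below 0.4 FPKM in each heart library. Cacna1c, the L-type calcium channel whose current triggers release in heart, had 17.8, 17.2 and 19.1 FPKM in heart, against 0.366, 0.275 and 0.275 FPKM in muscle. Slc8a1, the sodium-calcium exchanger that removes calcium at the end of a beat, had 127, 111 and 124 FPKM in heart, against 8.89, 3.84 and 4.98 FPKM in muscle (4.20 ± 0.26). The store protein sarcalumenin, Srl, averaged 280.3 ± 36.5 FPKM in heart and 282 ± 58.9 FPKM in muscle (SD, n = 3 each), a difference of 0.01 ± 0.19. Of 40 listed genes of calcium release and reuptake 36 passed the filter, 12 were higher in heart, 19 lower and 5 not called (median -1.13).

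Among 37 tested channel and pump genes of the action potential, 20 were higher in heart, 10 lower and 7 not called (median 1.09). Scn4a, the sodium channel of skeletal fibers, had 3.54, 5.66 and 5.98 FPKM in heart, against 72.4, 60.9 and 68.4 FPKM in muscle (-3.51 ± 0.19). The heart set included Kcnh2 (4.85 ± 0.17) and Kcnq1 (3.09 ± 0.14), channels of the repolarizing potassium currents. Kcnj5 (4.73 ± 0.15) and Kcnj3 (3.42 ± 0.16), the channel opened by vagal acetylcholine, and the pacemaker channel gene Hcn2 (2.81 ± 0.13) were higher in heart as well. The muscle set included Clcn1, the chloride channel that steadies the fiber membrane, with 1.55, 1.72 and 2.44 FPKM in heart, against 29.4, 9.21 and 31.2 FPKM in muscle (-2.90 ± 0.43). The inward rectifier Kcnj12 overlapped at 16.2, 18.5 and 21.7 FPKM in heart and 17.5, 21.9 and 20.8 FPKM in muscle.

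Of 25 tested genes of gap junctions and the intercalated disc, the contact between cardiomyocytes, 19 were higher in heart, 5 were not called, and Des, the desmin filament that both muscles use, was lower (median 1.43). Dsp, desmoplakin, which ties filaments to desmosomes, had 177, 196 and 227 FPKM in heart, against 0.108, 0.0197 and 0.0494 FPKM in muscle (7.56 ± 0.14). Gja1, the main ventricular connexin, had 174, 204 and 152 FPKM in heart, against 6.54, 14 and 9.70 FPKM in muscle (4.05 ± 0.26). Gja3 was at 12.4, 17.4 and 17.4 FPKM in heart and listed at 0 in all 3 muscle libraries. The adhesion gene Cdh2, N-cadherin, differed by 5.51 ± 0.12 and the desmosomal Pkp2 by 4.43 ± 0.15. Dystrophin complex and membrane repair genes were divided, with 11 of 27 higher in heart, 5 lower and 11 not called (median 0.20): the calpain Capn3 (-4.37 ± 0.16), the scramblase family member Ano5 (-3.97 ± 0.35) and the nitric oxide synthase Nos1 (-3.10 ± 0.33) stood lower in heart, and sarcospan, Sspn, higher (1.89 ± 0.31).

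Most of the listed transcription factors differed between the tissues. Of 30 listed heart factors 25 passed the filter and 22 were higher in heart, 2 lower and 1 not called (median 2.69). Nkx2-5 had 66.2, 84.5 and 69.5 FPKM in heart, against 0, 0 and 0.039 FPKM in muscle (6.19 ± 0.14). Gata4 had 35.4, 46.8 and 43.6 FPKM in heart, against 0, 0 and 0.0304 FPKM in muscle (5.40 ± 0.14), and Hand2 and Irx4 were listed at 0 in all 3 muscle libraries. Mef2d was among the 2 lower in heart (-0.45 ± 0.14), and its call was lost without muscle library 2 (-0.37). Ankrd1 and Tcf21 are on this list although the first is a stretch-regulated cofactor and the second marks fibroblasts of the heart.

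Of 36 listed skeletal factors 27 passed, 24 were lower in heart, 1 was higher (Sp100, 0.73 ± 0.25) and 2 were not called (median -2.52). The Sp100 call was lost on the TPM, median-of-ratios and quantile scales, and its difference was 0.46 without muscle library 2. Myod1, a founder of the myogenic lineage, had 0, 0.053 and 0.0295 FPKM in heart, against 7.78, 7.38 and 28.2 FPKM in muscle (-3.65 ± 0.46). Myf6, the myogenic factor of mature fibers, was listed at 0 in all 3 heart libraries and had 117, 14.4 and 127 FPKM in muscle, where muscle library 2 was the low one. Vgll2 had 0, 0.0673 and 0 FPKM in heart, against 91.4, 57.0 and 67.0 FPKM in muscle (-6.13 ± 0.19), and Tbx15 differed by -5.82 ± 0.18. All 7 tested Hox genes, which record position along the body and limb, were lower in heart, led by Hoxc10, listed at 0 in heart and at 45.6, 50.4 and 61.5 FPKM in muscle. Mef2c, on both lists, overlapped at 6.59, 5.69 and 7.25 FPKM in heart and 24.1, 6.34 and 19.3 FPKM in muscle.

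**Figure D3:**
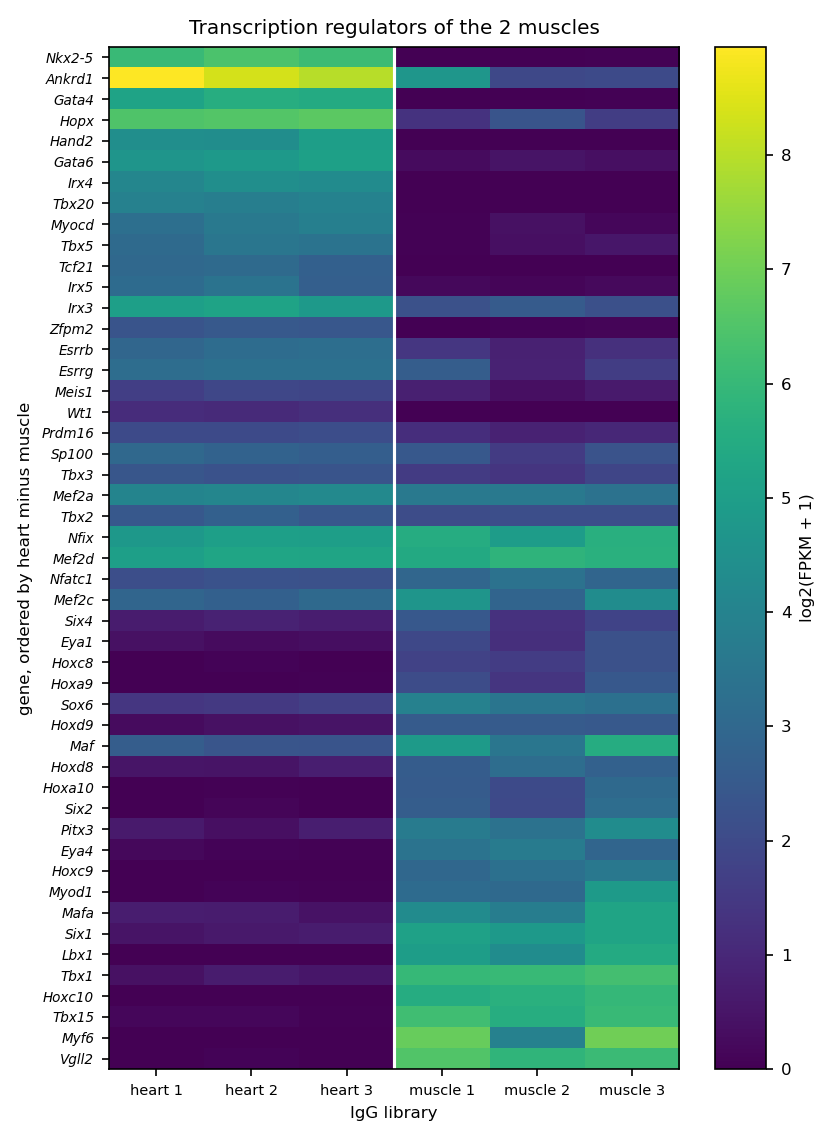
Heat map of log2(FPKM + 1) of tested genes of the heart and skeletal muscle transcription factor lists, 1 row per gene ordered by heart minus muscle and 1 column per IgG library, the 3 heart libraries left of the 3 muscle libraries, with brighter colors for higher levels. Nkx2-5 and Gata4 reach 84.5 and 46.8 FPKM in heart and at most 0.039 FPKM in muscle, and Vgll2 reaches 91.4 FPKM in muscle and at most 0.0673 FPKM in heart.

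Secreted products differed in kind. The cardiac hormone genes Nppb, with 621, 359.8 and 210.2 FPKM in heart and 0 in all 3 muscle libraries, and Nppa, with 109.6, 93.6 and 51.7 FPKM in heart and 1.20, 0 and 0 FPKM in muscle, were accompanied by Corin, the protease that activates the Nppa product (53.2, 54.6 and 57.4 FPKM in heart and at most 0.055 FPKM in muscle). Heart library 1 was the highest for both hormones. Mstn, myostatin, which limits muscle mass, had 0.0627, 0.182 and 0.183 FPKM in heart, against 49.6, 108 and 30.5 FPKM in muscle (-5.61 ± 0.41). Fndc5, the irisin precursor often described as a muscle product, was higher in heart, with 197, 193 and 234 FPKM, against 61.5, 39.3 and 36.2 FPKM in muscle (2.20 ± 0.22). The growth factors Fgf16 (3.77 ± 0.20) and Fgf1 (3.12 ± 0.32) were also higher in heart. Of 23 tested secreted factors 14 were higher in heart, 7 lower and 2 not called (median 0.80), and of 14 tested natriuretic and strain genes 5 were higher, 3 lower and 6 not called (median 0.40).

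Receptors through which nerves and hormones reach each muscle also differed. Adrb1, the main cardiac beta receptor, had 14.1, 19.2 and 13.3 FPKM in heart, against 0.104, 0.178 and 0.382 FPKM in muscle (3.75 ± 0.18). The vagal receptor Chrm2 had 35.2, 33.8 and 37.0 FPKM in heart, against 0, 0.0104 and 0 FPKM in muscle (5.18 ± 0.12). Downstream, the adenylyl cyclase Adcy5 (3.06 ± 0.25) and the phosphodiesterase Pde3a (2.91 ± 0.13) were higher in heart, while the phosphatase inhibitor gene Ppp1r1a was lower (-5.27 ± 0.33). Of 26 tested genes 15 were higher in heart, 4 lower and 7 not called (median 0.89).

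At the neuromuscular junction, the nerve contact of skeletal fibers, 8 of 16 tested genes were higher in heart, 6 lower and 2 not called (median 0.66). Those lower included the receptor subunits Chrne (-2.45 ± 0.11), Chrnb1 (-2.14 ± 0.13) and Chrna1 (-1.81 ± 0.11) and the organizing kinase Musk, with 0.0599, 0.118 and 0.0291 FPKM in heart, against 11.1, 23.5 and 5.32 FPKM in muscle (-3.53 ± 0.44). Those higher included Agrn (1.31 ± 0.14), the organizing signal released by nerve, and the basement membrane laminin Lamb2 (1.28 ± 0.13). Of 12 tested satellite cell and fusion genes 4 were higher, 3 lower and 5 not called (median 0.10). The stem cell markers Pax7 and Myf5 were listed at 0 in all heart libraries and did not reach 1 FPKM in muscle. Cdh15, M-cadherin, was listed at 0 in heart and had 17.5, 9.11 and 12.8 FPKM in muscle.

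The energy supply lists divided the tissues by route. Of 31 tested genes of fast glycolytic supply, glycogen use and phosphate buffering, 28 were lower in heart, 3 were not called and none was higher (median -1.75). Glycolytic isozymes higher in heart, as Hk1 (3.33 ± 0.12), Pfkfb2 (1.31 ± 0.19) and Pgam1 (1.06 ± 0.22), are not on this list. The list was drawn with earlier results of these data known, so the absence of higher genes is in part set by the choice. Ckm, muscle creatine kinase, had 435, 430.0 and 437 FPKM in heart, against 5174, 6019 and 5728 FPKM in muscle (-3.69 ± 0.14). The muscle AMP deaminase gene, Ampd1, was listed at 0 in all heart libraries, with 143, 149.7 and 99.8 FPKM in muscle. The lactate exporter Slc16a3 had 1.35, 1.30 and 1.06 FPKM in heart, against 74.8, 89.9 and 84.1 FPKM in muscle (-5.23 ± 0.13). Carbonic anhydrase Car3 differed by -8.80 ± 0.31, but it is a fat cell marker as well as a muscle gene. Phkg1 (-3.42 ± 0.21) and Pfkfb4 (-3.30 ± 0.21), regulators of glycogen breakdown and glycolysis, followed. These genes held 0.881% ± 0.0386 of the summed FPKM in heart and 4.62% ± 0.132 in muscle (exact permutation p = 0.1).

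Genes of fat and oxidative supply ran the other way, with 32 of 43 higher in heart, 3 lower and 8 not called (median 1.23), and 3.39% ± 0.142 of the summed FPKM in heart and 1.33% ± 0.195 in muscle. Ldhb, the lactate dehydrogenase form of oxidative tissue, had 765, 899 and 863 FPKM in heart, against 151, 107 and 132 FPKM in muscle (2.69 ± 0.17). Mb, the oxygen store myoglobin, had 8189.5, 8492 and 7306 FPKM in heart, against 2289, 2438 and 2315 FPKM in muscle (1.77 ± 0.16). Hk1 (3.33 ± 0.12), the lactate importer Slc16a1 (2.5 ± 0.19) and the fatty acid enzymes Cpt1a (2.13 ± 0.18), Acaa2 (2.1 ± 0.14) and Hadhb (2.07 ± 0.14) led the list. The 3 lower in heart were Pnpla2, a lipase (-1.11 ± 0.36), Pdk2, which restrains pyruvate oxidation (-0.69 ± 0.12), and the transporter Slc27a1 (-0.67 ± 0.19). None of the 3 was called without mitochondrial genes, and Pnpla2 was not called without muscle library 2 (-0.72 ± 0.25, limma adjusted p = 0.0505). Under ICB Slc27a1 was at 0.18 and Pnpla2 at -0.36, neither called. Of 25 tested ketone and amino acid genes 12 were higher in heart, 3 lower and 10 not called (median 0.37), or 20 higher and 2 lower without mitochondrial genes. Oxct1, which lets tissue burn ketone bodies, was higher (1.77 ± 0.16), and Gpt2, which makes alanine, was lower, with 6.19, 7.01 and 7.71 FPKM in heart, against 64.9, 157 and 74.1 FPKM in muscle (-3.54 ± 0.32).

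In the citric acid cycle and pyruvate dehydrogenase list, 18 of 27 genes were higher in heart, 1 lower and 8 not called (median 0.65). Idh2 had 557, 637 and 586 FPKM in heart, against 146, 86.5 and 115 FPKM in muscle (2.38 ± 0.20). Pcx, which refills the cycle, was the 1 lower in heart, with 9.80, 11.5 and 10.7 FPKM in heart, against 38.9, 50.3 and 97.8 FPKM in muscle. Of 44 tested common subunits of the respiratory chain encoded in the nucleus 24 were higher in heart, 20 were not called and none was lower (median 0.52), or 39 higher without mitochondrial genes, led by the ATP synthase subunit Atp5h (1.35 ± 0.17) and the complex I subunit Ndufs1 (1.25 ± 0.12). Of 14 tissue-specific subunits 5 were higher, 2 lower and 7 not called (median 0.60), or 10 higher and 1 lower without mitochondrial genes, and the muscle forms Cox6a2, Cox7a1 and Cox8b, shared by both striated muscles, were not called.

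Of the gene lists, mitochondrially encoded proteins held the largest share of summed FPKM in the heart libraries. By reads, all mitochondrially encoded genes took 22.6%, 23.3% and 23.0% in heart, against 8.93%, 8.42% and 10.2% in muscle. The 13 protein-coding genes of mitochondrial DNA held 37.0%, 37.8% and 39.6% of the summed FPKM in heart, against 16.6%, 15.7% and 17.9% in muscle. mt-Co1, a catalytic subunit of cytochrome oxidase, had 62073, 68151 and 65722 FPKM in heart, against 22266, 23886 and 23969 FPKM in muscle (1.48 ± 0.20). Of the 13 genes 12 were higher in heart (median 1.57), and mt-Co2 was not called (2.68 ± 0.93, limma adjusted p = 0.0507), with 2743 to 3300.3 FPKM in heart and 135 to 2393 FPKM in muscle, ranges that did not overlap. After their values were seen, 2 kinds could be told apart: the 7 genes with the higher heart means (mt-Nd1, mt-Nd2, mt-Nd4, mt-Nd5, mt-Nd6, mt-Co1 and mt-Cytb) differed by 0.84 to 1.57, and the other 6 by 2.06 to 4.70. Pseudogenes that copy part of mitochondrial DNA are annotated on chromosome 1, reads shared with such copies may have been split or dropped, and the values of these 6 are uncertain. The 10 most abundant genes of a library held 43.3% to 45.2% of the summed FPKM in heart libraries and 28.6% to 30.2% in muscle libraries. They included the predicted gene Gm23935 in each heart library and in muscle libraries 1 and 2.

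**Figure D4:**
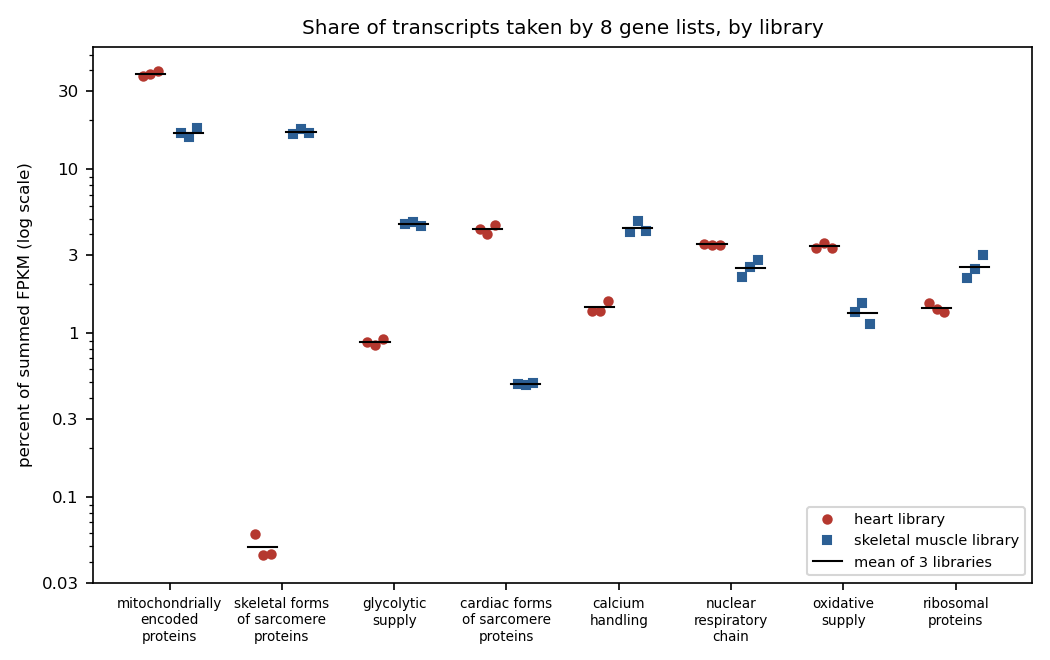
Share of the summed FPKM of a library, in percent on a logarithmic axis, taken by 8 gene lists, 1 point per library with heart libraries left of muscle libraries. Mitochondrially encoded proteins hold 37.0% to 39.6% in heart and 15.7% to 17.9% in muscle, and skeletal forms of sarcomere proteins hold 0.0495% in heart and 17% in muscle on average.

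Of 37 ribosomal protein genes 28 were lower in heart, 9 were not called and none was higher (median -0.74), and they held 1.42% ± 0.0947 of the summed FPKM in heart and 2.55% ± 0.417 in muscle. On the scale without mitochondrial genes 9 were lower and the median was -0.34, beside a median of 0.36 over all genes. Rpl3l, the striated muscle form of ribosomal protein L3, had 187, 176 and 195 FPKM in heart, against 418, 538 and 489 FPKM in muscle (-1.36 ± 0.14), whereas the common form Rpl3 overlapped. In the turnover list 3 of 27 genes were higher in heart, 13 lower and 11 not called (median -0.99), and without muscle library 2 the counts were 4 higher and 16 lower. The muscle ubiquitin ligases Trim63, with 68.1, 63.6 and 71.2 FPKM in heart, against 471, 3197 and 229 FPKM in muscle, and Fbxo32, with 26.5, 21.2 and 24.0 FPKM in heart, against 281, 738 and 126 FPKM in muscle, were highest in muscle library 2. Without that library their differences were -2.27 ± 0.30 and -2.93 ± 0.33, against -3.36 ± 0.86 and -3.59 ± 0.57 with it. Asb5, a ligase adaptor, did not vary so, with 8.46, 9.19 and 8.13 FPKM in heart, against 185, 212 and 173 FPKM in muscle (-4.31 ± 0.13).

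Genes most variable in muscle, chosen here after their values were seen, often had muscle library 2 as the highest. Pdk4, which blocks pyruvate oxidation in fasting, had 79.9, 91.0 and 45.9 FPKM in heart and 134, 1147 and 16.9 FPKM in muscle and was not called (-1.0 ± 1.33). Cebpd, a stress-responsive transcription factor gene, had 10.5, 6.55 and 10.5 FPKM in heart and 56.8, 408 and 11.9 FPKM in muscle. Hmox1, heme oxygenase, had 6.03, 4.34 and 3.95 FPKM in heart and 5.29, 122 and 6.14 FPKM in muscle, so that muscle library 2 alone was high. Others had another library highest, as Fasn, fatty acid synthase, with 4.69, 4.20 and 4.75 FPKM in heart and 79.0, 12.5 and 252 FPKM in muscle, and mt-Co2, highest in muscle library 3. The median standard deviation of a gene's log2 value was 0.10 in heart and 0.265 in muscle.

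Kinases and phosphatases of muscle were mixed, with 6 of 26 higher in heart, 8 lower and 12 not called (median -0.47). The kinases of the myosin light chain formed another exchange, Mylk3 with 158, 153 and 188 FPKM in heart, against 0, 0.0591 and 0.0832 FPKM in muscle (7.32 ± 0.13), and Mylk2 with 0.0191, 0 and 0.0186 FPKM in heart, against 678, 743 and 545 FPKM in muscle (-9.33 ± 0.15). Tnni3k, a kinase named for binding cardiac troponin I, was at 33.2 to 36.9 FPKM in heart and at most 0.018 FPKM in muscle. The fast fiber subunit of the energy sensor AMPK, Prkag3, was lower in heart (-3.45 ± 0.13), as were the phosphatase genes Dusp13 (-6.01 ± 0.15) and Dusp26 (-5.44 ± 0.14).

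**Figure D5:**
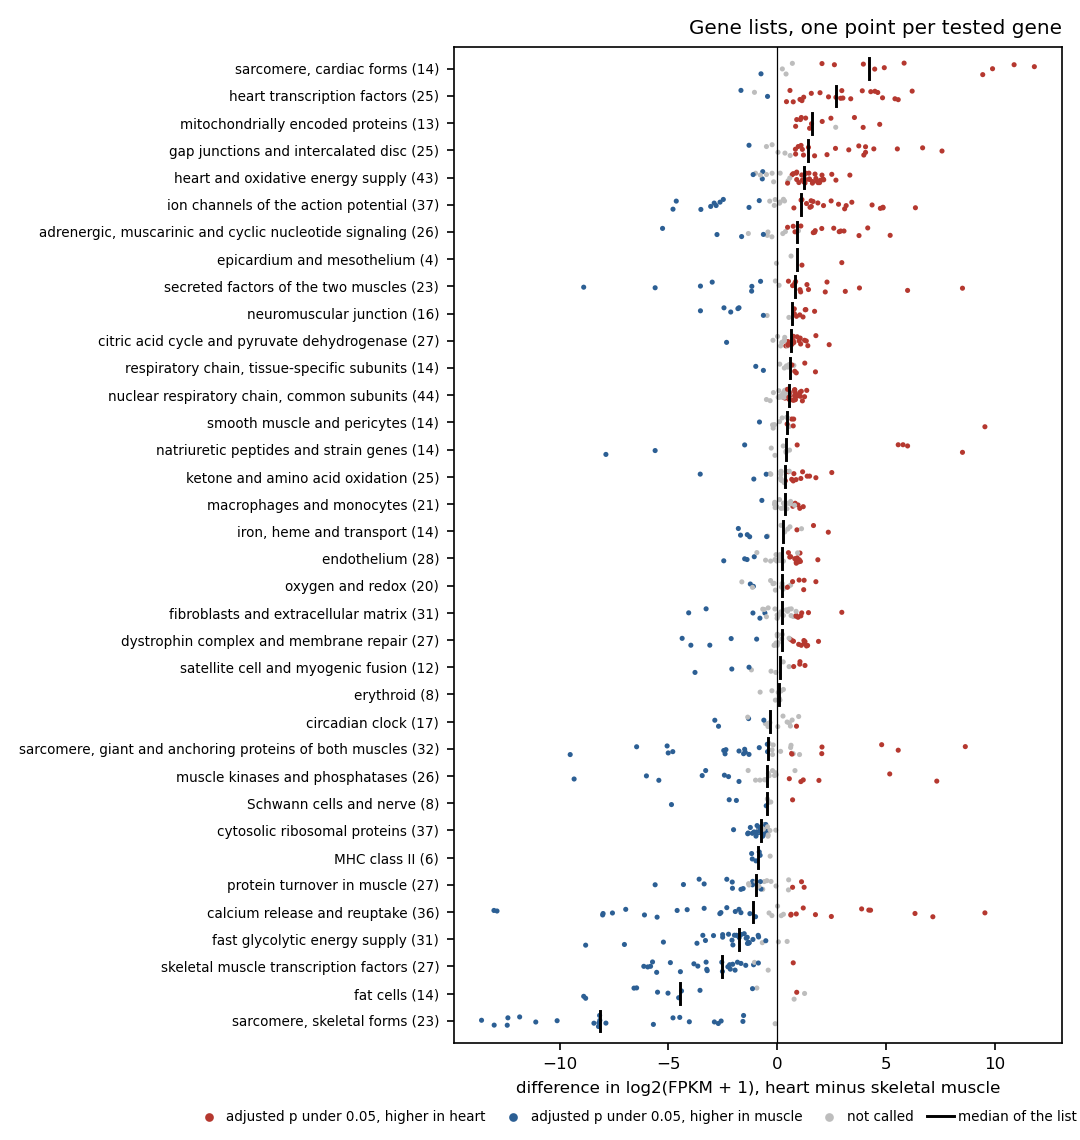
Difference in log2(FPKM + 1), heart minus skeletal muscle, for each tested gene of 36 gene lists, 1 point per gene, colored by whether it was higher in heart, lower in heart or not called, with the number of tested genes in brackets and a bar at the median of the list. Medians run from 4.21 for cardiac forms of sarcomere proteins to -8.15 for skeletal forms, beside -0.01 for all tested genes.

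Markers of some other cell types differed between the tissues, while the marker sums of macrophages and of smooth muscle overlapped. The part of these cells in the results above was not tested. Counts called in the lists below stand beside 44.9% of all tested genes. Fat was the clearest: Adipoq, Cidec and Plin1 summed to 0.274, 0.684 and 0.346 FPKM in heart, against 152, 219.6 and 408 FPKM in muscle, and of 14 tested fat genes 10 were lower in heart, 1 was higher and 3 were not called (median -4.46). Cfd, the adipokine adipsin, had 1.29, 0.962 and 0.595 FPKM in heart, against 636, 827 and 1452 FPKM in muscle (-8.89 ± 0.31). Schwann cell markers summed to 1.42, 1.93 and 1.99 FPKM in heart, against 35.8, 34.1 and 57.7 FPKM in muscle, with 5 of 8 tested nerve genes lower in heart, 1 higher and 2 not called (median -0.49), or 3 lower and 1 higher without mitochondrial genes. Tendon and matrix genes Fmod (-4.07 ± 0.27) and Thbs4 (-3.27 ± 0.44) were lower in heart, while Tcf21, a cardiac fibroblast gene, was at 7.21, 7.51 and 5.70 FPKM in heart and listed at 0 in muscle. Over the fibroblast list 7 of 31 genes were higher in heart, 5 lower and 19 not called (median 0.20), or 15 higher and 4 lower without mitochondrial genes.

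Of 28 endothelial genes 12 were higher in heart, 4 lower and 12 not called (median 0.23). Kdr, the VEGF receptor, was higher (1.86 ± 0.14), and Rgcc (-2.46 ± 0.43), Plvap (-1.50 ± 0.16), Aqp1 (-1.39 ± 0.15) and Cldn5 (-1.06 ± 0.27) were lower. The summed share ran the other way, with 0.150% of the summed FPKM in heart and 0.224% in muscle. Without mitochondrial genes it was 0.255% in heart and 0.277% in muscle. Of 14 smooth muscle and pericyte genes 5 were higher, 1 lower and 8 not called (median 0.44), or 10 higher and 1 lower without mitochondrial genes, 1 of the 5 being Pln, a cardiomyocyte gene here. Of 21 macrophage genes 5 were higher, 1 lower (the monocyte receptor Ccr2, -0.71 ± 0.13) and 15 not called (median 0.34), or 11 higher and 1 lower without mitochondrial genes, and of 4 epicardial genes 2 were higher and 2 not called (median 0.88). MHC class II genes were lower in heart for 5 of 6 (median -0.91), or 3 of 6 without mitochondrial genes, with H2-Ab1 at 11.2, 12.7 and 15 FPKM in heart, against 21.6, 31.0 and 42.2 FPKM in muscle. T cell markers summed to below 1 FPKM in every library. Of the 24 lymphocyte genes Ighm alone passed the filter (-2.87 ± 0.50), and of 5 thymus genes in the table Cd1d1 alone (-1.04 ± 0.29). None of 8 erythroid genes was called (median 0.07).

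Of 20 redox genes 6 were higher in heart, 2 lower and 12 not called (median 0.23), or 10 higher and 1 lower without mitochondrial genes, with the mitochondrial superoxide dismutase Sod2 higher (1.21 ± 0.12) and the glutathione peroxidases Gpx3 (-1.24 ± 0.18) and Gpx1 (-1.10 ± 0.33) lower. The Gpx1 call was lost without muscle library 2 (-0.87 ± 0.33, limma adjusted p = 0.0705). Of 14 iron genes 3 were higher, 5 lower and 6 not called (median 0.25), or 6 higher and 4 lower without mitochondrial genes: ceruloplasmin, Cp (2.34 ± 0.18), and the transferrin receptor Tfrc (1.66 ± 0.39) were higher in heart, and the iron exporter Slc40a1 was lower (-1.69 ± 0.16). Of 17 clock genes 1 was higher, 4 lower and 12 not called (median -0.34), or 4 higher and 3 lower (median 0.06) without mitochondrial genes, with Nfil3 (-2.70 ± 0.37) and Arntl (-1.32 ± 0.30) among those lower in heart. Of 3 tested microRNA genes Mir208b was called and Mir133a-2 and Mir145a were not (median 1.04).

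Against these differences stood 1487 genes, 12.6% of those tested, whose 95% interval of the difference lay within -0.5 to 0.5. Among the most abundant were the chaperones Hspa8, with 281, 298 and 290.3 FPKM in heart and 320.2, 319.7 and 291 FPKM in muscle, and Hspb8 (-0.05 ± 0.15), the cochaperone Bag1 (-0.08 ± 0.14) and Srl. Ccng1 (0.07 ± 0.15), the mitochondrial proteins Chchd2 (0.12 ± 0.16) and Chchd3 (-0.11 ± 0.13), the motor gene Kif1c (-0.17 ± 0.14) and Mcrip2 (0.11 ± 0.13) were also of this kind. Mpc1-ps (0.17 ± 0.13) is a pseudogene that can share reads with its parent, and its value is uncertain.

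The 3 heart and 3 muscle libraries of the ICB group, which the choice of genes did not use, were tested in the same way. There 6236 of 11880 tested genes differed (52.5%), 2919 higher in heart (24.6%) and 3317 lower (27.9%), and 301 (2.53%) and 353 (2.97%) by at least 4-fold. Of the genes called higher in heart under IgG and tested again, 2115 of 2584 (81.8%) were also called higher in heart under ICB, and of those lower in heart 2208 of 2608 (84.7%) were called lower. Of the genes with at least a 4-fold difference 314 of 322 (97.5%) and 358 of 361 (99.2%) were called again in the same direction, and Nxt2 was the 1 called gene that turned. A direct test of whether the tissue difference itself changed with ICB, in all 12 libraries with limma, called 0 of 12444 genes (800 at an unadjusted p under 0.05, smallest adjusted p = 0.75). Some list counts were not alike side by side: mitochondrially encoded genes were higher in heart for 3 of 13 under ICB (median 0.59) and 12 of 13 under IgG (median 1.57), and fibroblast genes were lower in heart for 17 of 31 under ICB (median -0.66) and 5 of 31 under IgG (median 0.20).

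The other IgG tissues were set beside these. Of the 322 genes at least 4-fold higher in heart than in muscle, 252 (78.3%) had their highest mean in heart among tumor, kidney, lung, liver, heart and muscle, beside 14.4% of all tested genes. As the 322 were chosen for exceeding muscle, which therefore cannot be their highest tissue, part of this share is set by the choice, and the same holds for the 361. Another 29 peaked in liver, 23 in kidney, 10 in lung and 8 in tumor. Of the 361 lower in heart, 296 (82.0%) had their highest mean in skeletal muscle, beside 20.5% of all tested genes. Lung held low levels of cardiac genes, with a mean of 21.4 FPKM for Myh6 and 13.1 FPKM for Tnni3, and kidney held a mean of 20.8 FPKM for Pvalb.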

How the data were processed

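RNA was sequenced from flash-frozen tissue (TRIzol, Illumina TruSeq, per the labels' protocols). The authors deposited FPKM values per gene symbol. Per the submitters' processing notes reads were aligned to mm10 with HISAT2 2.1.0, and edgeR is named without a version. No source used here gives the counter, annotation or strandedness, so overlapping genes and close copies may share reads. The values return whole reads for 18781 of 18781 rows (tolerance 0.001 reads). Set against these reads, the depth behind the FPKM values carried a further factor per library, relative to all 36 libraries. It was 0.8265 to 0.8614 in the heart IgG libraries and 0.7237 to 0.8139 in the muscle IgG libraries. The 15 nameless rows (0.1528% to 0.278% of reads here) and 3 symbols held by more than 1 row were left out.

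Genes that reached 1 FPKM in 3 or more of 6 libraries were tested on log2(FPKM + 1) with limma 3.58.1 in R 4.3.3 (2 group means, moderated two-sided test with a trend, Benjamini-Hochberg, threshold 0.05). Shares of summed FPKM and within-library ratios were tested by exact permutation. The rule named both genes of each protein pair, the 10 largest non-overlapping differences each way, up to 6 called members of each list by size and those against their list, the 10 most abundant genes within the interval, and cell markers. Some uncalled and other list members, the muscle library 2 genes, the edge genes and the mitochondrial split were chosen after their values were seen, and some genes the rule names are not reported here, in text or figures. The members, the pairs and the 39 lists (909 genes, 6 matched under a newer symbol) were chosen with earlier results of these data known.

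Alternatives were a pseudocount of 0.1, no filter or a filter in all 6 libraries, TPM scale with and without mitochondrial genes, median-of-ratios, quantile normalization, no trend, array weights, 1 fit of 36 libraries, a minimum log2 difference of 1, the title number as a block, limma-voom on the recovered reads and leaving out each library. Scaling to the recovered reads of a library and the 12-library fit are later additions, made with the data in view. The fit was tested on simulated data. No library was a duplicate of another. Title numbers 338 and 340 occur in both tissues and may mark the same mice, which the labels do not state. The deviations of these libraries correlated by -0.055 and 0.224. With 3 libraries per group such values cannot show whether the samples are paired, and the main fit had no block. Gene positions are from GENCODE M21 and sequences from RefSeq, with motifs searched on both strands. Python 3.11.15, numpy 2.4.6, pandas 2.3.3, scipy 1.17.1 and matplotlib 3.10.9 were used.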

Additional observations from a re-analysis of the deposited data

How the results depend on the processing

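Of 278 named genes 270 were called, and none of the calls changed sign in 21 alternative settings. Calls were lost for 123 when a log2 difference of at least 1 was tested for, 30 with a fixed replicate block, 35, 38 and 36 without heart library 1, 2 or 3, and 19 on the TPM scale without mitochondrial genes. Those lost whichever heart library was left out include Cd1d1, Gpx1, Jph2, Mef2d, Pnpla2, Slc27a1, Sp100, Tpm1 and Trim63. The 2648 genes higher and 2648 lower in heart became 4407 and 1459 when mitochondrially encoded genes were left out of a TPM scale, and 448 and 426 when a log2 difference of at least 1 was tested for. Genes at least 4-fold apart numbered 322 higher and 361 lower in heart. The 322 became 598 with a pseudocount of 0.1, 651 with limma-voom on the recovered reads, 669 on the TPM scale without mitochondrial genes and 131 with the filter in all 6 libraries, which removes genes absent from a tissue, and that filter left 180 of the lower kind. Leaving out a library gave 1806 to 3028 genes higher in heart and 1765 to 2979 lower, the fewest lower (1765) without heart library 1. With samples of equal title number set as a replicate block, 2099 and 2114 genes were called as a fixed term and 2780 and 2793 as a random one. Scaling to recovered reads, added after the data were seen, moved the split to 57.9% higher in heart. Limma-voom on the recovered reads, all whole, called 2748 genes higher and 2614 lower in heart.

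The difference in the Lmod2 to Lmod3 ratio was 0.78 and ran from -0.11 without muscle library 3 to 1.68 without muscle library 2. The cause was not tested. It was the 1 sign change in 245 ratio settings, and the 19 that moved did so with a pseudocount of 0.1. For the 8 lists whose shares were put through the settings, no difference changed sign in 55 settings. Among the others, 3 shares turned from lower to higher in heart without mitochondrial genes. Gap junction genes then held 0.675% in heart and 0.497% in muscle (0.395% in heart and 0.402% in muscle with them), ion channels 0.427% in heart and 0.330% in muscle (0.250% in heart and 0.267% in muscle with them), and secreted factors 0.334% in heart and 0.306% in muscle (0.196% in heart and 0.246% in muscle with them). The 6 that moved did so without mitochondrial genes, where cardiac sarcomere forms held 7.35% in heart and 0.603% in muscle, skeletal forms 0.0843% in heart and 21.0% in muscle, and glycolytic genes 1.51% in heart and 5.71% in muscle. Oxidative genes held 5.79% in heart and 1.65% in muscle, nuclear respiratory chain genes 5.93% in heart and 3.11% in muscle, and ribosomal genes 2.42% in heart and 3.15% in muscle. The number of libraries, 3 per tissue, and the spread in muscle limit the precision. Low-level genes near 1 FPKM rest on few reads.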
